A study of Homo sapiens with 16 samples.

Results

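ENO1, PGK1, HK2, SLC2A1 and ADM are 5 human genes of sugar breakdown and the response to low oxygen. They were selected on being named in the authors' deposited table of enriched processes for MDA231 brain metastases, and are 5 of the 2646 genes named there. Being named therefore follows from the selection and is described here without a test. The label of glycolysis and hypoxia fits the textbook roles of the genes more than the terms that named them. Of the 10 terms that named a member, 0 had glycolysis in the name and 1 concerned hypoxia.

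The study profiled brain metastases by Flura-seq, in which cells able to convert 5-fluorocytosine label their new RNA and an antibody recovers it. Each mouse carried a brain metastatic derivative of 1 breast cancer line, either MDA231, which is triple negative, or HCC1954, which is ERBB2-positive. All groups shared 30 days of growth in the brain and 250 mg/kg 5-fluorocytosine given 12 hours before the tissue was taken. There were 4 immunoprecipitated (IP) and 4 input libraries of each line, 16 in all. Both lines are established cell lines, and each group stands for 1 derivative, so nothing here separates the line from the derivative.

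The values are terms, not expression levels. The authors' deposited MDA231 table lists 314 Gene Ontology biological process terms from a list of 3626 genes, and 37 terms from 66 genes are listed for HCC1954. Each is set against a background of 16792 genes, so 21.6% of the background was in the MDA231 list and 0.393% in the HCC1954 list. The sources used here say neither how the listed genes were picked nor whether IP RNA held more or less of them than input RNA. No direction of change can therefore be given for any member, and there is no spread between libraries behind any value. Library depth is unknown here. Brain samples also hold mouse RNA, and how human and mouse reads were told apart is not given in the sources used here. Its part in any result was not tested.

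Glycolysis splits glucose into pyruvate and yields ATP without oxygen. When oxygen falls, the hypoxia-inducible factors (HIFs) are no longer degraded; they pair with ARNT and raise transcription of glucose transporters, glycolytic enzymes and vessel-acting peptides. SLC2A1 (GLUT1) brings glucose into the cell and is also the main glucose carrier of the blood-brain barrier. HK2 adds the first phosphate to glucose and can dock on the mitochondrial outer membrane. PGK1 makes ATP from 1,3-bisphosphoglycerate, and ENO1 makes phosphoenolpyruvate. ADM encodes adrenomedullin, a secreted peptide that widens vessels and acts through the receptor CALCRL with RAMP proteins. All 5 genes are known HIF targets.

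The members lie on 4 chromosomes (GRCh38, GENCODE release 29). ENO1 (ENSG00000074800) spans 8861000 to 8879250 of chromosome 1 on the minus strand. SLC2A1 (ENSG00000117394) spans 42925375 to 42959176 of the same chromosome, also on the minus strand. HK2 (ENSG00000159399) spans 74833981 to 74893359 of chromosome 2, plus strand. ADM (ENSG00000148926) spans 10304680 to 10307397 of chromosome 11, plus strand. PGK1 (ENSG00000102144) spans 77910739 to 78129296 of chromosome X, plus strand. GENCODE names 4 pseudogenes after ENO1, 1 after PGK1 and 1 after HK2. Reads could be split between these genes and such copies, and how multiply aligned reads were counted is not given in the sources used here.

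HIFs bind DNA at ACGTG or GCGTG, so the members' start sites were searched for these letters as a description of the genes, not of the enrichment. Windows of 250 bases upstream of each RefSeq start (GRCh38.p14) were read on both strands. PGK1 had 3 matches, HK2 had 3 at its upstream start and 6 at its downstream start, ENO1 had 2 and ADM had 1. SLC2A1 had 0, which says only that these letters are not in this window. Over all genes, 43.2% of 35116 windows had a match and 7.76% had 3 or more. In HK2, ACGTG on the 2 strands overlaps within CACGTG, so 4 of the 6 downstream matches come from overlapping pairs. Each stretch below is 30 bases placed to hold and centre as many matches as fit, nearest the start where placements tie. It is written 5′ to 3′ on the gene's strand, with ACGTG or GCGTG in either orientation in capitals. The other match of ENO1, the GCGTG of PGK1 and the remaining HK2 matches at both starts lie outside their stretches. The stretches lie inside the GENCODE gene spans, on chr1:8878741-8878770 (ENO1), chrX:78104043-78104072 (PGK1), chr2:74834063-74834092 and chr2:74835009-74835038 (HK2), and chr11:10304960-10304989 (ADM).
ENO1: ggagctgaggggGCGTGccccggaggcggg
PGK1: cggACGTGacaaacggaagccgCACGTctc
HK2, upstream start: agccaatggGCGTGcgCACGTcactgatcc
HK2, downstream start: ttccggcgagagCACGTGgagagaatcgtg
ADM: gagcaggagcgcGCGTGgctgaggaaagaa

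Each member entered the table through terms of its own. ENO1 was named in 4 terms, SLC2A1 in 2, ADM in 2, PGK1 in 1 and HK2 in 1. No pair of the 10 pairs of members shared a term. The share of all pairs of named genes without a shared term was not computed. The count is therefore not read as a trait of the members. The median was 2 terms per member and also 2 terms over all 2646 named genes, whose numbers ran up to 23. ENO1 was thus among the 22.5% of named genes with 4 or more terms, while 39.6% of named genes were in 1 term, as PGK1 and HK2 were.

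**Figure D1:**
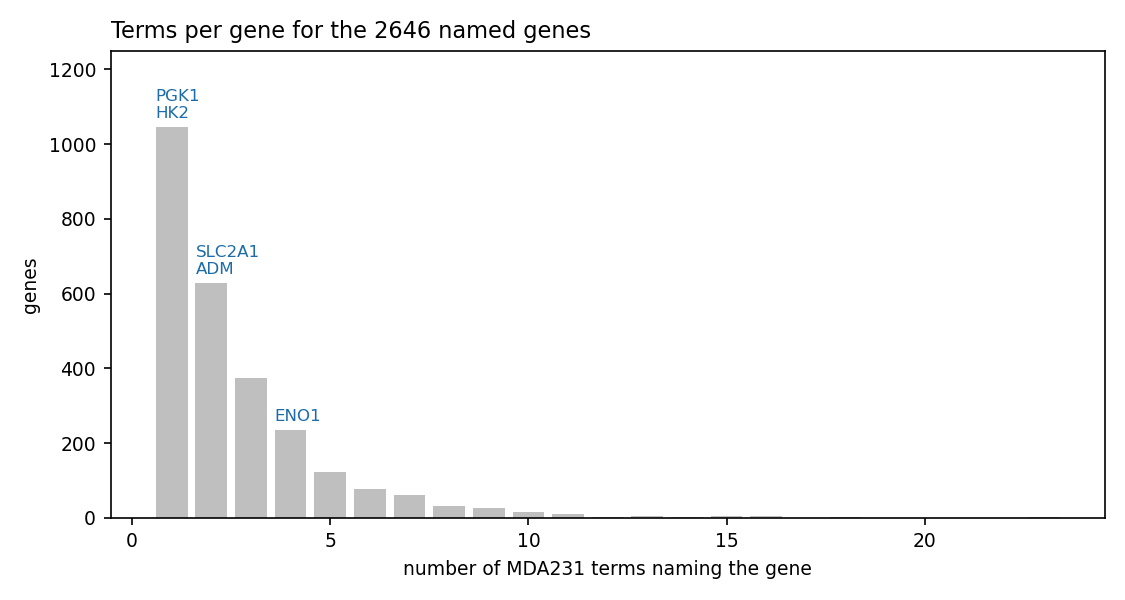
Number of genes (y axis) by the number of MDA231 terms that named them (x axis), for all 2646 named genes; the members are written above the bar that holds them. PGK1 and HK2 stand with the 1047 genes in 1 term, SLC2A1 and ADM with the 629 in 2, and ENO1 with the 235 in 4.

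By their medians, the 10 terms were broad and weakly enriched for this table. Their deposited folds had a median of 1.46 (1.06 to 2.19), against a median of 1.93 over all 314 terms per the authors' deposited table. They held a median of 113 background genes, against 30.5 over all terms. Apoptotic mitochondrial changes (19 background genes, fold 2.19) and response to osmotic stress (18 background genes, fold 2.06) were exceptions on both measures. Of the 10, 1 had an adjusted p under 0.05 per the authors' deposited table, the same call as for 4.78% of the 314 terms. An unadjusted p under 0.05 was deposited for 6 of the 10, against 68.2% of all terms. The table stops at an unadjusted p of 0.0973, and in it a small term needs a larger fold to be listed. Fold and term size therefore move together, and their parts in the low median fold of the members' terms were not tested. The share of a term's background genes that was listed is given below with an exact (Clopper-Pearson) 95% binomial interval, which covers the draw of genes only.

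**Figure D2:**
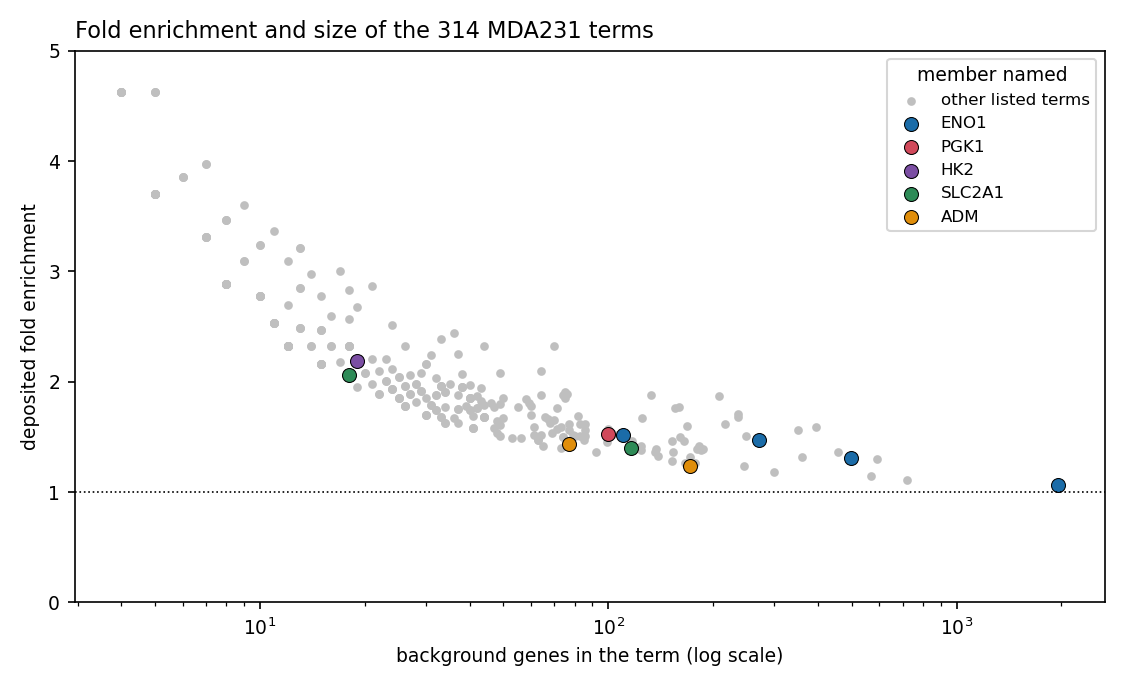
Deposited fold enrichment (y axis) against the number of background genes in the term (x axis, log scale) for the 314 MDA231 terms; coloured points name a member and the dotted line marks a fold of 1. The terms of HK2 and of SLC2A1 with 19 and 18 background genes have the folds of 2.19 and 2.06, and the ENO1 term with 1955 background genes lies lowest, at 1.06.

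ENO1, the enolase of glycolysis, was named for adhesion, transcription and virus response. Cell-cell adhesion held 86 of its 271 background genes, or 31.7% (interval 26.2 to 37.6), where the overall listed share would give 58.5. Its deposited fold was 1.47 and its adjusted p = 0.0462 per the authors' deposited table, the only call past 0.05 among the 10 terms. Other genes of this term were PDLIM1 and VASP, which act on the actin cytoskeleton, and KRT18, an epithelial keratin. Negative regulation of transcription, DNA-templated held 141 of 499 genes, or 28.3% (interval 24.3 to 32.4), with a fold of 1.31 and adjusted p = 0.0909 per the authors' deposited table. Transcription, DNA-templated was the broadest of the 10, with 447 of 1955 genes (22.9%, interval 21.0 to 24.8), a fold of 1.06 and adjusted p = 0.955 per the authors' deposited table. Its interval takes in the overall share of 21.6%. An alternative product of ENO1, MBP-1, is known to repress the MYC promoter, a function apart from glycolysis.

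The fourth ENO1 term was response to virus, with 36 of 110 genes (32.7%, interval 24.1 to 42.3), a fold of 1.52 and adjusted p = 0.547 per the authors' deposited table. Its interferon and antiviral genes included IRF7, IFIH1, OAS1, OAS2, OAS3, IFIT2, IFIT3, RSAD2 and BST2. The transcription terms shared 95 genes with each other, which is 67.4% of the genes in the repression term and 21.2% of those in the broad one. Cell-cell adhesion and response to virus shared 1 gene, ENO1 itself.

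PGK1, which makes ATP in glycolysis, came in by phosphorylation alone. That term held 33 of 100 background genes, or 33.0% (interval 23.9 to 43.1), where 21.6 would follow from the overall share. Its fold was 1.53, its unadjusted p = 0.00996 and its adjusted p = 0.58 per the authors' deposited table. Many of its named companions phosphorylate small molecules. They included the nucleoside kinases TK1, DCK and UCK1, the adenylate kinase AK3, the NAD kinases NADK and NADK2, the pantothenate kinase PANK1, the choline kinase CHKA and the mevalonate pathway kinase PMVK. Protein kinases were there too, among them MTOR, CDK5 and LIMK2. HK2 also transfers a phosphate to a sugar and was not named in this term, which follows from the annotation used.

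HK2 was named for apoptotic mitochondrial changes. This small term held 9 of 19 background genes, or 47.4% (interval 24.4 to 71.1), with a fold of 2.19, the highest of the 10, an unadjusted p = 0.0356 and adjusted p = 0.83 per the authors' deposited table. Its other genes were BID and BIK, which are BCL2-family death proteins, PPIF (cyclophilin D) and SLC25A4 (the ADP/ATP carrier), which act at the permeability transition of mitochondria, and CDKN2A, IFIT2, JTB and PPP2CB. None of the other glycolytic enzymes looked up below was named in this term.

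SLC2A1, the glucose transporter, was named for protein complex assembly and response to osmotic stress. The first held 35 of 116 background genes (30.2%, interval 22.0 to 39.4), a fold of 1.4 and adjusted p = 0.799 per the authors' deposited table, with companions as different as FANCA and FANCC of DNA repair and the mitochondrial assembly factors NDUFAF1 and ATPAF1. The other held 8 of 18 genes (44.4%, interval 21.5 to 69.2), a fold of 2.06 and adjusted p = 0.941 per the authors' deposited table. The osmotic stress genes were MAPK13, ATF2, SORD (sorbitol dehydrogenase), MAP7, MARVELD3, TSC22D3 and NFAT5, the transcription factor of the hypertonic response. The interval of this term reaches just below the overall share of 21.6%.

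Terms on glucose were in the table but did not name SLC2A1 or any other member. Since the members are all listed genes, this follows from the annotation of those terms, not from the RNA values. Regulation of glucose transport had 14 of 33 genes, with a fold of 1.96 and unadjusted p = 0.0155 (adjusted p = 0.667) per the authors' deposited table. Nearly all of its named genes encode parts of the nuclear pore, such as NUP62, NUP93, NUP98 and RANBP2, and the remaining one was TRIB3, an inhibitor of AKT. Carbohydrate transport had 11 of 27 genes listed, with a fold of 1.89 and adjusted p = 0.879 per the authors' deposited table. It named SLC2A8, SLC2A10, SLC2A11, the sugar transporter SLC50A1 and several nucleotide sugar carriers of the SLC35 family. Glucose import had 6 of 12 genes listed, with a fold of 2.32 and adjusted p = 0.965 per the authors' deposited table, namely SLC2A8, SLC2A10, RAB4B, SESN2, SORT1 and TSC1. No name among the 314 contained glycolysis, gluconeogenesis, hexose, oxygen, angiogenesis or pyruvate. ATP appeared in 1 name, ATP-dependent chromatin remodeling (10 of 23 genes; adjusted p = 0.857 per the authors' deposited table), which named no member.

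ADM, a secreted peptide, was the only member named for hypoxia, which likewise follows from the annotation used. Response to hypoxia held 46 of 172 background genes, or 26.7% (interval 20.3 to 34.0), where 37.1 would follow from the overall share. Its fold was 1.24, its unadjusted p = 0.087 and its adjusted p = 0.958 per the authors' deposited table, and it stood at place 289 of 314 by p. It lies near the end of the table, and the interval takes in 21.6%. Its genes covered oxygen sensing and HIF action (EGLN3, a prolyl hydroxylase that marks HIF for degradation, and ARNT, the partner of HIF), heme breakdown (HMOX1 and HMOX2), oxygen storage (MB), collagen hydroxylation (PLOD1 and PLOD2), TGF-beta signalling (TGFB2, TGFBR2 and SMAD4) and autophagy (BECN1 and FUNDC1). DDIT4, an inhibitor of MTOR signalling, was also among them.

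The other ADM term was neural tube closure, with 24 of 77 genes (31.2%, interval 21.1 to 42.7), a fold of 1.44 and adjusted p = 0.903 per the authors' deposited table. It named planar polarity and Wnt genes (PRICKLE1, FZD3 and DVL2), cytoskeletal genes (SHROOM3, COBL and VASP), retinoic acid receptors (RARA and RARG), the epithelial factor GRHL2, and TSC1 and TSC2. The terms of ADM shared 2 genes, ADM and TGFB2.

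**Figure D3:**
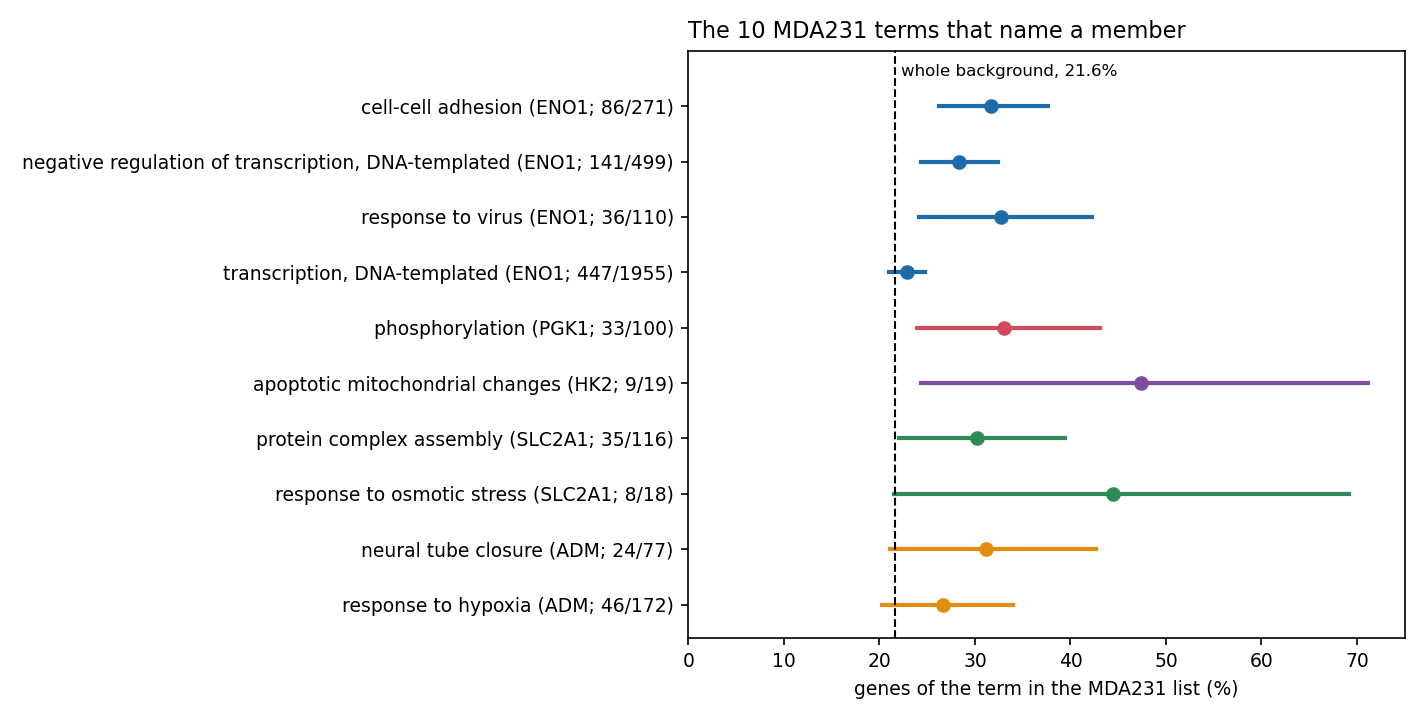
Percent of each term's background genes that were in the MDA231 list (x axis) for the 10 terms naming a member, with points for the share, lines for the exact 95% binomial interval and a dashed line at the overall 21.6%; numbers in brackets are listed over background genes. All 10 points lie right of the dashed line, as does every listed term, since the lowest fold of the 314 is 1.06. The intervals of 6 of the 10 terms lie wholly above it, against 248 of all 314, and those of neural tube closure, response to osmotic stress, transcription and response to hypoxia cross it.

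Partner genes in common between members were counted. No rate for other named genes was computed, so the counts are not read as few or many. Together the members' terms named 728 of the 2641 other genes, and 447 of these were in transcription, DNA-templated. ENO1 had 603 partner genes, ADM 67, SLC2A1 41, PGK1 32 and HK2 8. Of the 728, 22 genes were named with 2 members or more, each of them with ENO1 and another. TRAF6, a ubiquitin ligase of immune signalling, was the only one named with 3 members (ENO1, SLC2A1 and ADM), and it was in 14 terms in all. ENO1 and ADM shared the most partners, 11, which is 1.82% of the partners of ENO1 and 16.4% of those of ADM. Among them was ARNT, which stood with ENO1 in the broad transcription term and with ADM in response to hypoxia. The others were AJUBA, CDKN1B, NR4A2, PDLIM1, PRICKLE1, RARA, RARG, SMAD4, TRAF6 and VASP.

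ENO1 and SLC2A1 shared 8 partners (CHAF1B, GMNN, MAPK13, NUPR1, SSBP3, TRAF6, WASL and ZNF148). ENO1 and PGK1 shared CDK5 and PI4KA, and ENO1 and HK2 shared CDKN2A and IFIT2. Among the glycolytic enzymes looked up below, PFKL was the only named one that is not a member. It was in protein oligomerization alone, which named no member. No such enzyme could therefore have been a shared partner. PGK1, HK2 and SLC2A1 had 0 partners in common in any pair, and neither PGK1 nor HK2 had any in common with ADM. With ADM, SLC2A1 shared TRAF6 alone.

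The genes most like each member in the terms that named them were ranked by the Jaccard index, which is the number of shared terms over the number of terms naming either gene. CREBZF, a transcription factor, was most like ENO1, with 3 shared terms and an index of 0.6, followed at 0.5 by ATXN1, CBFA2T2, DHX36 and ELF2 among 23 genes at 0.5 or above. For PGK1, 13 genes had an index of 1, since both were in phosphorylation alone, with AK3, GK5, HMGXB3, IPMK and N4BP2 first by name. For HK2, BIK, JTB, PPIF, PPP2CB and SLC25A4 had 0.5. SLC2A1 had 10 genes at 0.5, beginning with AFG3L2, ATPAF1, MAGI1, NDUFAF1 and NFAT5, and ADM had 13, beginning with AGTRAP, AHCY, ANG, CD24 and CIAO3. With so few terms per member these indices rest on 1 to 3 shared terms.

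**Figure D4:**
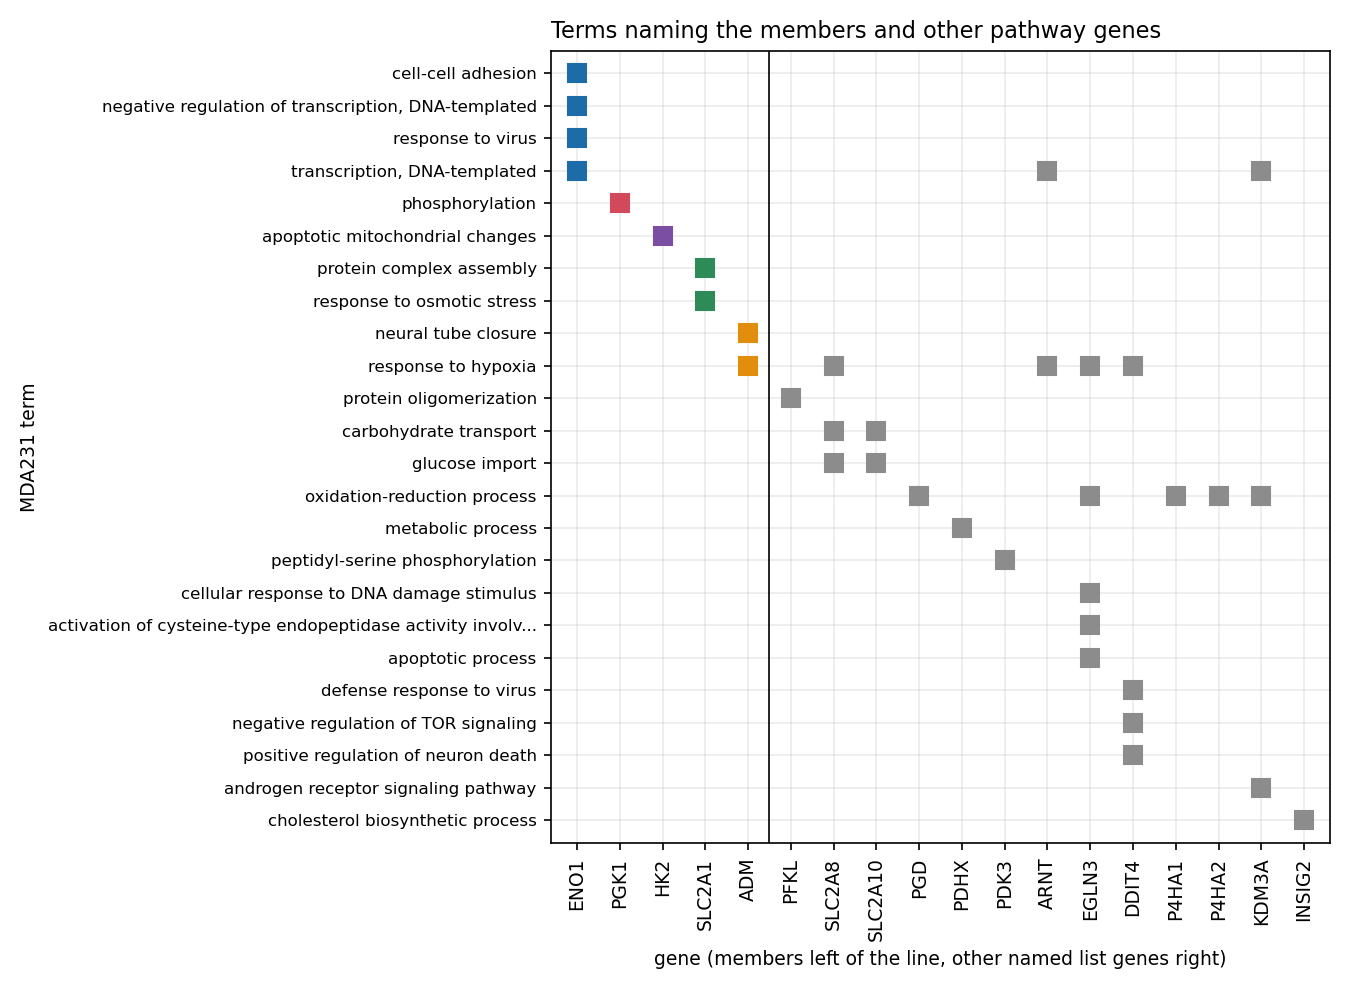
MDA231 terms (y axis) that named each member (coloured squares, left of the line) and each other named gene of the pathway lists (grey squares, right of the line). The 5 members occupy 10 separate terms with 0 shared, and SLC2A8, ARNT, EGLN3 and DDIT4 join ADM in response to hypoxia.

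The wider pathways were looked up next in the MDA231 table. A gene can be listed and still not be named, since it is printed only where one of its terms is in the table. Of 24 glycolytic enzymes, 4 were named (16.7%), near the 15.8% of all 16792 background genes that were named. They were HK2, PGK1, ENO1 and PFKL, the liver-type phosphofructokinase, which came in by protein oligomerization. Of the 21 enzymes that are not members, 1 was named (4.76%). Removing members that were chosen for being named lowers the share by construction, so this value is not comparable with the 15.8%. GAPDH, PKM, LDHA, ALDOA, TPI1 and PGAM1 were among the 20 enzymes that were not named.

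Of the 10 glucose transporters on the list, 3 were named, SLC2A1, SLC2A8 and SLC2A10. SLC2A11, named in carbohydrate transport, was not on this list. For lactate transport the count was 0 of 4, for the enzymes specific to gluconeogenesis 0 of 7, and for the pentose phosphate enzymes 1 of 7, which was PGD. Pyruvate dehydrogenase and its kinases had 2 of 11 named, PDHX, a structural subunit, and PDK3, a kinase that inhibits the complex. The adrenomedullin system had ADM of 8 genes, with 0 of the receptor genes CALCRL, RAMP1, RAMP2 and RAMP3 named. Among all background genes, 15.8% were named. With lists of 4 to 11 genes, these counts are not read as a result about the pathways.

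Beside the 15.8% of all background genes that were named, HIF pathway regulators were named for 2 of 10 genes, ARNT and EGLN3. HIF1A and EPAS1, which encode the oxygen-regulated subunits, were not named. Of 26 HIF target genes 11 were named (42.3%), but 5 of these are the members, which had been chosen for being named. Without the members 6 of 21 were named (28.6%), a share lowered by construction in the same way. The lists were chosen with earlier results known, so neither share is read as an excess over 15.8%. The 6 were DDIT4, EGLN3, the collagen prolyl hydroxylases P4HA1 and P4HA2, the histone demethylase KDM3A and INSIG2, which restrains cholesterol synthesis. P4HA1, P4HA2, KDM3A and EGLN3, which all use oxygen and iron, were in oxidation-reduction process, and KDM3A was also in transcription, DNA-templated, with ENO1. VEGFA, CA9, LDHA and PDK1, which are widely used HIF target genes, were not named.

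**Figure D5:**
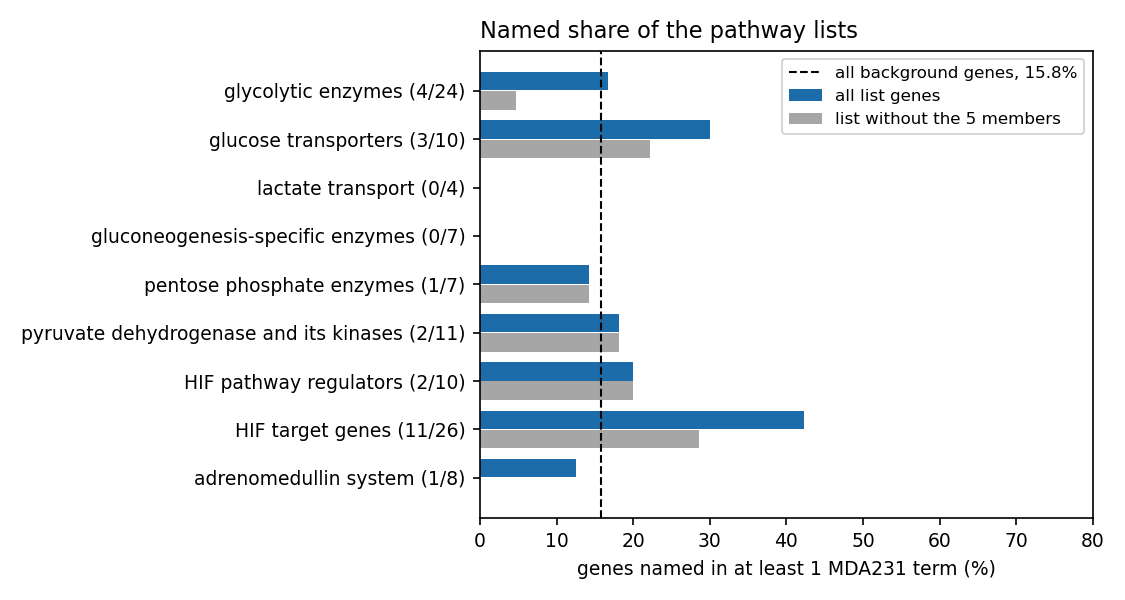
Percent of genes named in at least 1 MDA231 term (x axis) for 9 pathway lists, with all list genes in blue, the list without the 5 members in grey and the 15.8% of all background genes as a dashed line; numbers in brackets are named over list genes. Glycolytic enzymes stand at 16.7% with the members and 4.76% without them, and HIF target genes at 42.3% and 28.6%. Taking out members, which were chosen for being named, lowers a share by construction, so grey bars of such lists are not comparable with the dashed line.

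Markers of cells other than the tumour were looked up in the same table, since brain endothelium carries SLC2A1 and ADM acts on vessels. Of 5 genes each, endothelium had PECAM1 named, neurons had MAP2, and astrocytes, microglia and oligodendrocytes had 0. Epithelial tumour markers had 3 of 5 named, KRT8, KRT18 and CDH1, while EPCAM and KRT19 were not named. Of all background genes, 15.8% were named. With 5 genes per list, these counts are not read as the origin of the listed RNA. Absence of a name does not show absence from the list, and the part of other cells in the members' listing was not tested. In bulk RNA, fewer cells of a type and less RNA per cell cannot be told apart.

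The 2 tables differed in that the MDA231 table named all 5 members and the HCC1954 table named 0 of 5. The HCC1954 table also named 0 genes of each of the 9 pathway lists, and no HCC1954 term had hypoxia, glucose or glycolysis in its name. The lists differ greatly in size, with 2646 named genes for MDA231 and 30 for HCC1954, so few names would be expected in the smaller one and the difference was not tested. Since the members were selected on the MDA231 table, their presence there carries no weight in this comparison.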

How the data were processed

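The labels' protocols describe poly(A) RNA taken from brains with oligo(dT) beads, an anti-BrdU pull-down with 2.5 µg of antibody for each brain, and SMARTer cDNA libraries. The tools named per the submitters' processing notes are STAR and HTSeq, on the builds GRCh38 and GRCm38. Tool versions, the enrichment tool and the way genes were listed are not given in those notes or labels. Per the file headers, the authors deposited counts of genes (per term, listed and background), a percent of submitted genes, unadjusted and Benjamini adjusted p-values, and a fold enrichment. The fold is the ratio of the listed to the background share, recomputed within a relative difference of 3.5e-10. These counts are genes, not reads. In 3 MDA231 terms, transcription, DNA-templated among them, the deposited count is 1 below the identifiers printed; shares use the count.

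Ensembl identifiers were matched to symbols for 2645 of 2646 MDA231 genes and 30 of 30 HCC1954 genes. Full values were planned for terms naming at least 2 members (there were 0), the leading term of each member and terms with pathway words in the name. The remaining member terms, carbohydrate transport, and further genes named from within terms were added after their values were seen. Partner genes named were the 5 most alike per member, those with at least 2 members and named list genes. The members and lists were chosen with earlier results of these data known. All p-values are the authors'; no enrichment was tested here. Membership counts and the Jaccard index were tested on simulated data. Alternatives were an unadjusted or adjusted p under 0.05, at least 10 background genes, terms with a Jaccard index of 0.5 or more counted once, at most 100 listed genes, list genes in at least 2 terms, and likeness by number of shared terms. Python 3.11.15, SciPy 1.17.1, NumPy 2.4.6, pandas 2.3.3 and matplotlib 3.10.9 were used.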

Additional observations from a re-analysis of the deposited data

How the results depend on the processing

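No paired analysis was possible because the deposited tables hold no value per library, and for the same reason no library could be left out. With terms limited to an adjusted p under 0.05, ENO1 kept 1 term, PGK1, HK2, SLC2A1 and ADM had 0, and 1 term named any member. With an unadjusted p under 0.05, SLC2A1 had 1 term, ADM 0 and all members together 6, and the genes named with at least 2 members numbered 7, against 22 over all terms. Over terms of at most 100 listed genes these numbered 5; fewer terms enter by construction. Counting only list genes in at least 2 terms left 1 glycolytic enzyme, 6 HIF target genes, 0 pentose phosphate enzymes and 0 genes of pyruvate dehydrogenase and its kinases. Of 44 alternatives computed, 29 gave a count within 1.5 times the reported one and 15 did not. No term named 2 members under any of the 4 alternatives tried for that count. Settings that only drop terms could give no other answer, since 0 terms did so in the full table. The smallest member term has 18 background genes, so requiring at least 10 could not change a count of member terms. Such fixed outcomes are among the 29. Term sizes of 8 to 447 listed genes limit the precision, and no depth is known.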
